A study of Mus musculus with 6 samples.

Results

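The 10 transcripts described here encode proteins that fill the granules or the cytosol of neutrophils, together with the receptor for their growth factor: the primary granule enzymes Mpo, Elane and Prtn3, the specific granule proteins Ltf, Camp, Ngp and Lcn2, the cytosolic alarmins S100a8 and S100a9, and the receptor gene Csf3r. They were chosen by symbol, through the RefSeq accession that the array design gives each probe, and 11 of the 55681 non-control probes matched, 2 of them for Camp and 1 for each other gene. The array named 20018 gene symbols in all. RNA came from skin endothelial cells of C57Bl/6J mice, isolated by fluorescence-activated cell sorting and not treated afterwards. One genotype was a knockout of APJ, the receptor for the peptide apelin that Aplnr encodes (3 samples, replicates 1 to 3), and the other was wild type (3 samples, replicates 1 to 3). The labels name neither the allele, the age nor the sorting markers, and number each sample by a mouse. An embryonic stage appears only in what the authors called their scanner files, the same for all 6, and the sample labels do not give it. Each of the 6 arrays carried signal both for Xist, transcribed from an inactive X chromosome, and for Ddx3y and Eif2s3y of the Y chromosome, so it is unknown how many animals a sample holds, and p-values cover no more than the spread among the 6 samples, which may be technical. Each sample was hybridised to 1 one-colour Agilent array, and replicates 1 and 2 of both genotypes shared slide 1 while replicate 3 of both lay on slide 2.

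Neutrophils are built in waves. The primary granule enzymes, a peroxidase and serine proteases, are transcribed at the promyelocyte stage, the specific granule proteins at the myelocyte stage, and the calcium-binding S100A8 and S100A9, which together form calprotectin, accumulate to high levels in the cytosol of mature cells and act as danger signals when released. C/EBP-family factors and PU.1 drive many of these genes, and granulocyte colony-stimulating factor, acting through its receptor CSF3R, supports the growth of the lineage.

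The promoter windows of the 5 transcripts whose levels varied most between arrays among those above background somewhere are printed to show the sequence before their start sites. Each run is the 250 bases before the start of the gene, from RefSeq on build GRCm38.p6, 5′ to 3′ on the gene's own strand, and capitals mark the words GAGGAA or TTCCTC, the core bound by PU.1 on either strand, and TTGCNNAA or TTNNGCAA, a word bound by C/EBP factors on either strand.
Mpo, chr11:87793534-87793783 (plus strand): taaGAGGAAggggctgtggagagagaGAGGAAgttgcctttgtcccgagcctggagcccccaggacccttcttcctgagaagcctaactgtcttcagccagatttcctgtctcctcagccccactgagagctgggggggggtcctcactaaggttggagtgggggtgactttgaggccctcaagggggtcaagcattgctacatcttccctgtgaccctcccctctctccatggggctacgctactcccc
Elane, chr10:79886062-79886311 (plus strand): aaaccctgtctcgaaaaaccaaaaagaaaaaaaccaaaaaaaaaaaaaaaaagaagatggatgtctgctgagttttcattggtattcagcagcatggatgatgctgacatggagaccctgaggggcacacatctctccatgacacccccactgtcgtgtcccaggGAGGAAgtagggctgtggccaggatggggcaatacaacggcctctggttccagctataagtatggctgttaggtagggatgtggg
Prtn3, chr10:79879417-79879666 (plus strand): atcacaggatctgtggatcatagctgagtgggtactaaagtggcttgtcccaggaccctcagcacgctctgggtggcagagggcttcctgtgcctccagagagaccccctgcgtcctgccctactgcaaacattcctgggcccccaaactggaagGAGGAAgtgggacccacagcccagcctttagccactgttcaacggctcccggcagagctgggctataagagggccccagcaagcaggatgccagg
S100a8, chr3:90668821-90669070 (plus strand): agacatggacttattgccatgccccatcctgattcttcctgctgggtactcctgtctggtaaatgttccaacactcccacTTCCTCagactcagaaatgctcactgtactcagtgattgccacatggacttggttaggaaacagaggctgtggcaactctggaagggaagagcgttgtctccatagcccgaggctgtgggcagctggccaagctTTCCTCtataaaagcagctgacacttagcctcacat
S100a9, chr3:90695722-90695971 (minus strand): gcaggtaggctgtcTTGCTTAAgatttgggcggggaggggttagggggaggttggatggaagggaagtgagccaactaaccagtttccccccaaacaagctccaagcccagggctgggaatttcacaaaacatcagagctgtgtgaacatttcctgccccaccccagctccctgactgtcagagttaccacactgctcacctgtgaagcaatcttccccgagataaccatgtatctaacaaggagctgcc

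The PU.1 word occurred in 7 of the 10 windows (Mpo, Elane, Prtn3, Ltf, Lcn2, S100a8 and Csf3r), against 23.3% of 32851 promoter windows of the same length. The C/EBP word occurred in 4 of 10 (Ltf, Ngp, Lcn2 and S100a9), against 9.56% of all windows. In the neighbouring genes Elane and Prtn3 the PU.1 word stood at 85 to 80 and at 95 to 90 bases before the start. A RUNX word, TGTGGT or ACCACA, was found in 1 window (S100a9), against 4614 of the 32851, and the TATA box word TATAAA, read on the gene's strand only, in 1 (S100a8), against 7.59%. A match describes letters in a window and does not show that a factor binds there.

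Expression levels are log2 signals relative to the 75th percentile of the same array, so a level of 0 lies at that percentile. The percentile was 251.8 to 399.7 intensity units, and 50.36% to 58.01% of probes on an array were well above background by the scanner software's test. Aplnr, the targeted gene, had levels of 1.89, 1.71 and 2.26 in the knockout samples against 3.35, 3.77 and 3.82 in wild type, a log2 difference of -1.69 ± 0.19 (SE, n = 3 per group, limma adjusted p = 0.0237). Across the array, 134 of 24235 genes and unnamed probes passed an adjusted p of 0.05, a share of 0.553% (89 higher in knockout, or 0.367%, and 45 lower, or 0.186%). A fit blocked on the replicate number passed 5 (0.0206%), and one blocked on the slide 285 (1.18%). All 12 pan-endothelial markers, among them the vascular cadherin gene Cdh5 and Pecam1, were well above background on every array.

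None of the 10 neutrophil transcripts passed the test in either direction: 0 of the 7 tested passed, where 0.553% of all features did, and 1, Mpo, had an unadjusted limma p below 0.05, against 8.03% of all features. The other 3, Prtn3, Ltf and Ngp, were not well above background on every array of either genotype and were not tested, and S100a8 entered the test through the knockout arrays alone. Blocking on the slide or on the replicate number also passed 0 of the 7, against 1.18% and 0.0206% of all features. Of the 10 members, 6 were well above background on all 6 arrays, 2 on some and 2 on none. Of the 7 tested members, 4 had a measured difference of knockout minus wild type above 0 and 3 below, Camp being below by only -0.00201. The other 3 also read above 0, but at or near background, and no direction is drawn for them. Over all 10 the median was 0.22, a value that rests in part on those 3, against -0.03 over all 20018 symbols, of which 42.2% were above 0.

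**Figure D1:**
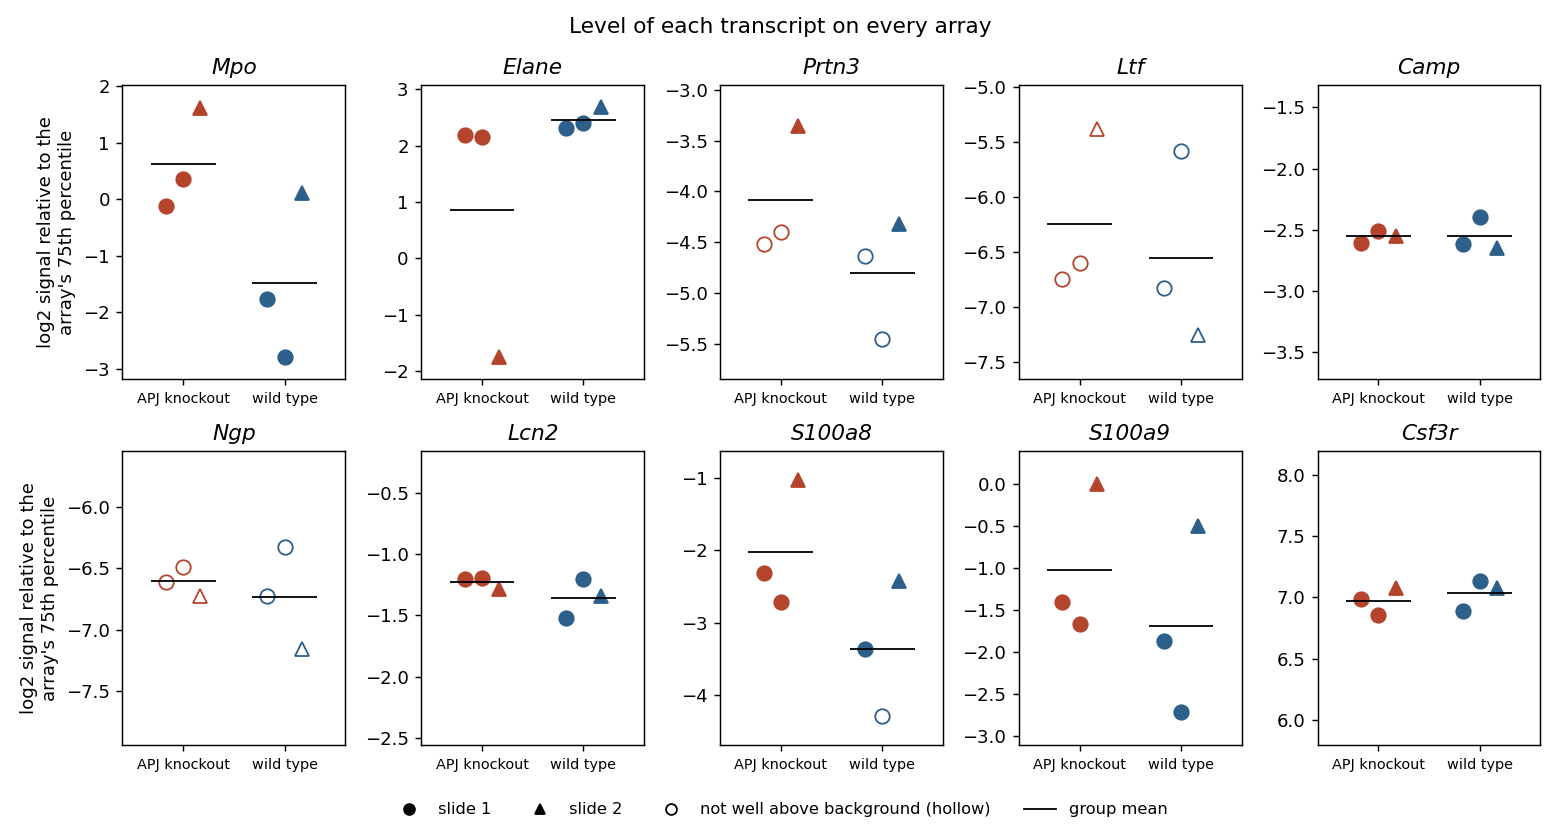
Level of each of the 10 transcripts on every array, as log2 signal relative to the array's 75th percentile on the vertical axis, with APJ knockout left of wild type. Circles are arrays of slide 1, triangles arrays of slide 2, hollow points were not well above background, bars are group means, and each panel has its own vertical range. Mpo, S100a8, S100a9 and Prtn3 were highest in knockout replicate 3 and lowest in wild type replicate 2, while Elane in knockout replicate 3 was at -1.75 against 2.15 to 2.68 on the other 5 arrays.

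Among the primary granule enzymes, Mpo (NM_010824, chromosome 11) encodes myeloperoxidase, which makes hypochlorous acid in the phagosome. Its levels were -0.13, 0.36 and 1.62 in knockout replicates 1, 2 and 3, against -1.77, -2.78 and 0.11 in wild type replicates 1, 2 and 3. Knockout replicate 3 was the highest array and wild type replicate 2 the lowest, and the genotypes overlapped, since wild type replicate 3 lay above knockout replicate 1. The means were 0.62 ± 0.90 in knockout and -1.48 ± 1.47 in wild type (SD, n = 3 each), a log2 difference of 2.10 ± 0.78 (SE), or 4.28-fold, with a 95% interval of 0.22 to 3.98. This was the largest difference among the 7 tested members, and it did not pass the test (limma unadjusted p = 0.0338, adjusted p = 0.534). The exact permutation test over samples gave a two-sided p of 0.2, where 0.1 is the smallest that 3 against 3 allow.

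Within slide 1 the Mpo difference was 2.39, and within slide 2, with 1 array per genotype, 1.51. Knockout was above wild type in 3 of 3 same-numbered pairs, by 1.64, 3.14 and 1.51. The slides differed as well: Mpo was higher on slide 2 by 1.50 in knockout and by 2.38 in wild type. The limma adjusted p was 0.0659 in the fit blocked on slide and 0.163 in that blocked on replicate number.

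Elane (NM_015779, chromosome 10) encodes neutrophil elastase, a serine protease stored beside myeloperoxidase. Its levels were 2.19, 2.15 and -1.75 in knockout replicates 1, 2 and 3, against 2.31, 2.41 and 2.68 in wild type. Both groups were close together except for knockout replicate 3, which lay 3.90 log2 units, or 14.9-fold, below the lowest other array. The groups did not overlap, as was the case for 12.2% of all tested features (exact permutation p = 0.1, the smallest possible), but on slide 1 the gap between genotypes was only -0.18. The means were 0.87 ± 2.26 in knockout and 2.46 ± 0.19 in wild type (SD, n = 3 each), a log2 difference of -1.60 ± 1.03 (SE) with a 95% interval of -4.07 to 0.88 (limma adjusted p = 0.942). Without knockout replicate 3 the difference was -0.29.

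The low value of Elane on that array was present in the unprocessed spot. The processed intensities were 1403, 1158 and 119 in knockout against 1425, 1334 and 2415 in wild type, and the median pixel signals were 1262, 1028 and 121 in knockout against 1260, 1186 and 2102 in wild type. The scanner software flagged no spot of this probe as an outlier, and the probe was well above background on all 6 arrays. Only 1 spot carries the probe on each array, so no second spot or second probe could be set beside it. Whether the signal of this probe comes from neutrophil transcript was not tested. Of all 24235 tested features, Elane was the 1 that lay at least 3 log2 units below the other arrays in knockout replicate 3. The next was Klc1, a kinesin light chain gene, with levels of 1.77, 1.60 and -1.27 in knockout against 1.56, 1.53 and 1.30 in wild type. The same margin was met by 5 features in knockout replicate 2 and by 0 on each of the other 4 arrays.

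**Figure D2:**
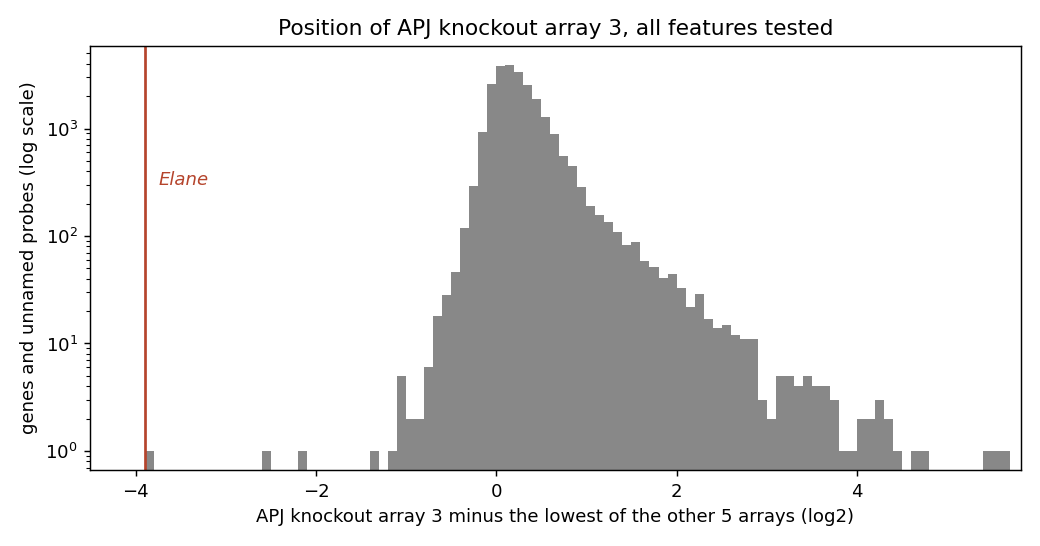
Histogram of the 24235 tested features by how far knockout replicate 3 lay from the lowest of the other 5 arrays, in log2 units on the horizontal axis, with the number of genes and unnamed probes on a logarithmic vertical axis. The line marks Elane at -3.90, and the nearest feature is Klc1 at -2.57.

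The genes on either side of Elane read at or near background, so they could not have shown a fall of that size. Prtn3, the gene before it, encodes proteinase 3, another serine protease of the same granules (NM_011178, chromosome 10). Prtn3 had levels of -4.52, -4.40 and -3.35 in knockout against -4.64, -5.45 and -4.32 in wild type, and was well above background in replicate 3 of each genotype and on no other array. Knockout replicate 3 was thus the highest array for Prtn3 and the lowest for Elane. The measured Prtn3 difference was 0.71, with 0.59 within slide 1 and 0.97 within slide 2 (exact permutation p = 0.3), and it rests on values mostly at background. On the other side, Cfd, the gene for complement factor D, read above background on no array, and the next gene, Med16, a Mediator subunit, stayed within 9.59 to 9.67 in knockout and 9.68 to 9.84 in wild type.

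The alarmin genes lie next to each other on chromosome 3. S100a8 (NM_013650) had levels of -2.31, -2.71 and -1.03 in knockout against -3.36, -4.29 and -2.43 in wild type. It was well above background on all knockout arrays and on 2 of 3 wild-type arrays, replicate 2 being the exception. The means were -2.02 ± 0.88 in knockout and -3.36 ± 0.93 in wild type (SD, n = 3 each), and the log2 difference was 1.34 ± 0.58 (SE), or 2.53-fold, with a 95% interval of -0.06 to 2.75 (limma adjusted p = 0.663). The genotypes overlapped through knockout replicate 2 and wild type replicate 3, with an exact permutation p of 0.2. The difference was 1.31 within slide 1 and 1.40 within slide 2, and 1.05, 1.58 and 1.40 in the 3 same-numbered pairs. It ranged from 0.85 to 1.81 with 1 array left out and was 0.56 with another background correction (normexp). The wild-type spots were dim, with intensities of 28.1, 12.9 and 70.1 in replicates 1, 2 and 3.

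S100a9 (NM_009114), the partner subunit of calprotectin, had levels of -1.40, -1.67 and -0.01 in knockout against -1.87, -2.71 and -0.50 in wild type. The order of the arrays was nearly that of S100a8, with knockout replicate 3 highest and wild type replicate 2 lowest, and the genotypes overlapped. The means were -1.03 ± 0.89 in knockout and -1.69 ± 1.12 in wild type (SD, n = 3 each), a log2 difference of 0.67 ± 0.65 (SE) with a 95% interval of -0.89 to 2.23 (limma adjusted p = 1). Within slide 1 the difference was 0.76 and within slide 2 it was 0.50.

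Both alarmins also differed between slides. Slide 2 was above slide 1 by 1.49 in knockout and 1.39 in wild type for S100a8, and by 1.53 in knockout and 1.79 in wild type for S100a9. Blocking on replicate number gave a limma adjusted p of 0.0863 for S100a8 and 0.197 for S100a9, and blocking on slide gave 0.101 for S100a8 and 0.324 for S100a9. In the blocked fit by replicate number, 3 of the 7 tested members (Mpo, S100a8 and S100a9) had an unadjusted limma p below 0.05. Over all features it was 3384 of 24235 (14%), and 0 members passed after adjustment. S100a8 entered the test only through the knockout arrays, where it read higher, so the count of 3 is not read as a result about the members. Of the genes around the pair, S100a7a, a skin member of the family, was well above background on 0 of 6 arrays.

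**Figure D3:**
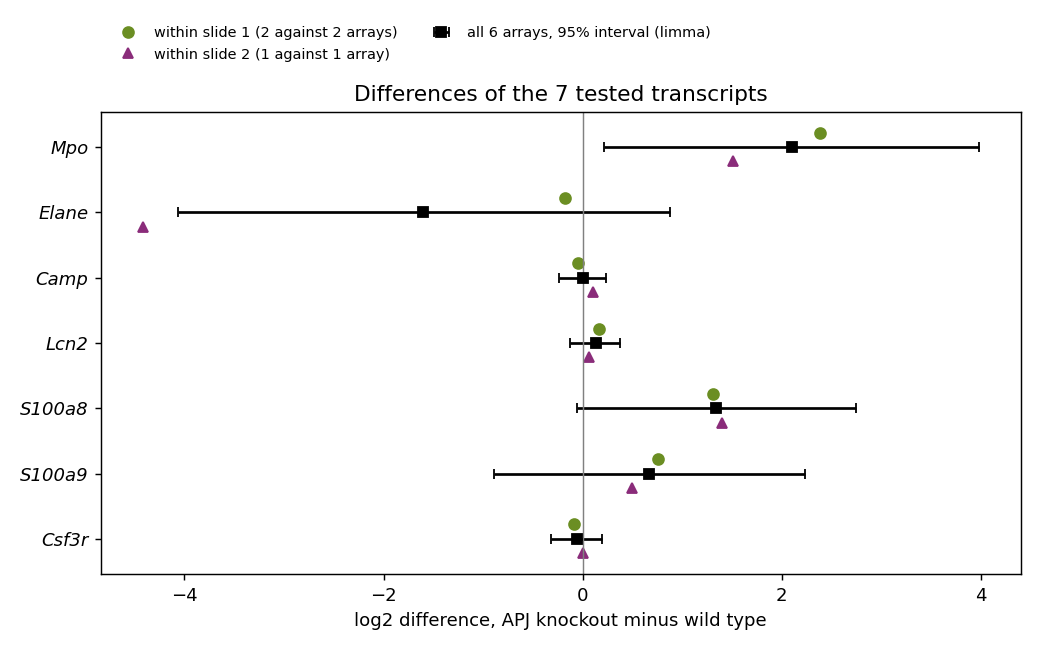
Log2 difference of APJ knockout minus wild type for the 7 tested transcripts on the horizontal axis. Squares with bars are the limma estimates from 6 arrays with 95% intervals, circles the difference within slide 1 (2 against 2 arrays) and triangles that within slide 2 (1 against 1). Mpo, S100a8 and S100a9 lay above 0 on both slides, Elane was at -0.18 on slide 1 and -4.42 on slide 2, and Camp, Lcn2 and Csf3r lay near 0.

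Of the specific granule proteins, Camp and Lcn2 were measured on every array and Ltf and Ngp on none. Ltf (NM_008522, chromosome 9), which encodes the iron-binding lactoferrin, was at -6.74, -6.60 and -5.38 in knockout against -6.83, -5.58 and -7.25 in wild type, and passed the background test on 0 of 6 arrays. Ngp (NM_008694, chromosome 9), neutrophilic granule protein, was at -6.61, -6.49 and -6.72 in knockout against -6.72, -6.33 and -7.16 in wild type, also on 0 of 6. The lowest level that counted as well above background lay between -5.23 and -4.53 on knockout arrays and between -5.18 and -4.36 on wild-type arrays, so no fold change is given for these 2 genes.

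Camp (NM_009921, chromosome 9), the precursor of the antimicrobial peptide cathelicidin, was well above background on all arrays with both of its probes. The brighter probe read -2.61, -2.51 and -2.55 in knockout against -2.62, -2.39 and -2.64 in wild type. The means were -2.55 ± 0.05 in knockout and -2.55 ± 0.14 in wild type (SD, n = 3 each), and the 95% interval of the difference was -0.24 to 0.24 (limma adjusted p = 1). The dimmer probe read -2.95, -3.09 and -3.17 in knockout against -3.26, -2.87 and -3.18 in wild type, a difference of 0.03. The 6 arrays of the brighter probe spanned 0.25 log2 units, against 4.40 for Mpo and 3.26 for S100a8.

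Lcn2 (NM_008491, chromosome 2), which encodes lipocalin 2, a binder of bacterial siderophores also made by epithelia, was at -1.20, -1.20 and -1.28 in knockout against -1.52, -1.21 and -1.34 in wild type. Its log2 difference was 0.13 ± 0.11 (SE, n = 3 per group), with a 95% interval of -0.13 to 0.38 (limma adjusted p = 1). Csf3r (NM_007782, chromosome 4), the G-CSF receptor, was at 6.99, 6.86 and 7.08 in knockout against 6.89, 7.13 and 7.08 in wild type. The means were 6.97 ± 0.11 in knockout and 7.03 ± 0.13 in wild type (SD, n = 3 each), the difference was -0.06 ± 0.11 (SE), and its 95% interval was -0.32 to 0.20 (limma adjusted p = 1). Csf3r intensities of 38929, 30161 and 53940 in knockout and 34216, 35282 and 50910 in wild type were below saturation on every array. Its level lay beside that of the pan-endothelial marker Cldn5 (mean 6.97 in each genotype). The pan-leukocyte markers ranged widely. Knockout and wild-type means were 3.93 and 3.93 for Lcp1, 2.99 and 2.99 for Coro1a, and 1.44 and 1.27 for Cd52. They were 1.10 and 1.14 for Laptm5, -3.06 and -3.45 for Ptprc, and -3.53 and -3.52 for Cd53. Csf3r was read by 1 probe, and whether that signal comes from neutrophil transcript was not tested. Neither Lcn2, Camp nor Csf3r differed between slides by more than 0.16 in either genotype.

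Other genes of the neutrophil programme were present only in part, so the 10 transcripts are described here gene by gene and not as a measure of neutrophils. Of 23 further granule and secreted proteins, 22 had a probe, 11 were well above background on all 6 arrays, and Mmp8, Fcnb and Bpi, which encode a collagenase, a ficolin and a bactericidal protein, were above it on none. Of these, 14 were tested and 0 passed in either direction, and the median measured difference over the 22 was 0.25. Ctsg, the primary granule protease cathepsin G, passed when blocked on slide (difference 0.77, limma adjusted p = 0.0323, against 1 unblocked and 0.074 blocked on replicate number), with levels of -2.56, -2.74 and -1.07 in knockout against -3.33, -3.52 and -1.81 in wild type. The smallest unblocked p was that of Lyz2, lysozyme M, which macrophages also make, at -2.92, -3.71 and -3.25 in knockout against -5.27, -5.54 and -4.57 in wild type (limma adjusted p = 0.0731). Lyz2 was above background on 3 knockout arrays and 1 wild-type array, so it entered the test only through the genotype where it read higher, as did Cd14, Il1b and Cebpe, described next (3 knockout and 2 wild-type arrays each). Chil3, a chitinase-like protein, was next, with a difference of 0.68 ± 0.29 (SE, limma adjusted p = 0.633), then Anxa1, annexin A1, with 0.33 ± 0.17 (0.834).

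Among 17 neutrophil surface receptors and adhesion genes, 16 had a probe, and 5 of them (the chemokine receptor gene Cxcr2, the formyl peptide receptor gene Fpr2, Trem3, Cd177 and Itgb2l) were well above background on 0 of 6 arrays. Of the 16, 7 were tested and 0 passed, with a median of 0.18. Cxcr4, the CXCL12 receptor that endothelial cells also carry, had the smallest p, with levels of 0.88, 0.60 and 0.40 in knockout against 0.35, 0.16 and -0.10 in wild type (difference 0.49, limma adjusted p = 0.46). Of 6 NADPH oxidase subunits, which make the superoxide that gives rise to the peroxide used by myeloperoxidase, 3 were tested and 0 passed, and the median was -0.03. Ncf4 had the smallest p (difference 0.44, limma unadjusted p = 0.27). Cyba, a subunit that many cells express, was at 4.41 to 4.54 in knockout and 4.43 to 4.64 in wild type.

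The regulators and sensors around the pathway were mostly measurable. Of 10 granulocyte transcription factors, 8 were tested and 0 passed (median 0.03). Cebpb had a difference of 0.49 (limma adjusted p = 0.484), Irf8 0.52 (0.722) and Cebpe, required in mice for specific granules, 0.82 (0.736). Spi1, which encodes PU.1, was above background on no array. Of 14 other S100 genes with a probe, 10 were tested and 0 passed (median -0.04), S100a6 coming closest with 2.00, 1.70 and 1.85 in knockout against 0.93, 1.41 and 1.58 in wild type (limma adjusted p = 0.448). Of 12 alarmin receptors and other alarmins, 10 were tested and 0 passed (median 0.05). Cd14, a co-receptor of TLR4, which binds S100A8 and S100A9, differed by 0.91 (limma adjusted p = 0.414) and the interleukin gene Il1b by 1.34 (0.763).

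Of 9 genes of G-CSF and GM-CSF signalling, 8 were tested and 0 passed (median 0.01), and Csf3, the ligand itself, was above background on no array. Csf2rb2 and Csf2rb, near-identical receptor subunits whose probes may share signal, had differences of -0.74 (limma adjusted p = 0.464) and -0.58 (0.742). Lrp1, a scavenger receptor that takes up lactoferrin, had levels of -0.46, -0.64 and -0.64 in knockout against -1.16, -1.27 and -1.34 in wild type. Its difference was 0.68 ± 0.10 (SE, n = 3 per group), with a limma adjusted p of 0.0525, and blocking on slide took it past the threshold (0.0328). Serpina1a, one of several closely similar mouse genes for the elastase inhibitor alpha-1-antitrypsin, was at -1.97, -1.63 and -2.06 in knockout against -2.68, -2.84 and -3.15 in wild type (limma adjusted p = 0.0769, and 0.0323 blocked on slide). Slpi, the secretory leukocyte protease inhibitor, differed by 0.73 (0.479, and 0.048 blocked on slide). None of these 3 passed when blocked on replicate number.

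Markers of other cells moved with some of the same arrays, and their part in the neutrophil values was not tested. In bulk RNA, fewer cells of a type and less RNA per cell cannot be told apart. Pan-leukocyte markers, all 6 of which had a probe and 5 of which were well above background on every array, had a mean level of 0.19, 0.24 and 1.0 in knockout against 0.11, 0.06 and 1.0 in wild type. They were high in replicate 3 of both genotypes, as were Mpo, S100a8 and S100a9, and the genotypes overlapped. Of 13 macrophage markers with a probe, 12 were tested and 0 passed in the unblocked fit, and the median difference over the 13 was 0.45 (0.43 within slide 1 and 0.19 within slide 2). That median was 0.20, 0.23 and 0.93 without wild type replicates 1, 2 and 3, and 0.49, 0.60 and 0.17 without knockout replicates 1, 2 and 3. Their summed linear levels were 33.3, 29.3 and 39.1 in knockout against 22.1, 24.7 and 38.2 in wild type. Lyve1 weighed most in the knockout sums, at levels of 3.83, 3.57 and 3.32 against 2.82, 3.19 and 2.93 in wild type. The sums are thus not read as macrophage content. C1qa, a complement gene, was at -2.68, -3.48 and -2.58 in knockout against -4.43, -5.36 and -4.34 in wild type (limma adjusted p = 0.123). C1qa passed when blocked on replicate number (0.0431), and Aif1, a calcium-binding protein gene, when blocked on slide (difference 1.11, adjusted p = 0.0241, against 0.254 unblocked). C1qa, C1qc and Adgre1 entered the test only through the knockout arrays, where they read higher. Of the 13 markers, 11 had a measured difference above 0 and 2 below. Among brighter ones above background on all 6 arrays, the difference was -0.23 for Csf1r, 0.06 for Mrc1, 0.23 for Cx3cr1 and 0.28 for Tyrobp. Cd163 was above background on no array.

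Mast cell and basophil markers also followed the slides, with mean levels of -0.95, -1.0 and 0.59 in knockout against -1.6, -1.54 and 0.31 in wild type over 7 of 8 genes, Cma1 being left out for a spot marked as an outlier. Mcpt8, a basophil protease gene, passed when blocked on slide (difference 1.12, limma adjusted p = 0.0358, against 1 unblocked). Markers of keratinocytes, which make S100a8 and S100a9 in inflamed skin, had sums of 12.1, 11.5 and 10.8 in knockout against 10.9, 17.8 and 38.5 in wild type. Of the 9 tested, 0 passed. Trp63, nearly flat at 2.93 to 3.13 in knockout and 3.09 to 3.23 in wild type, weighed most in the knockout sums. The mean levels of the 12 markers were -1.73, -2.51 and -3.11 in knockout against -3.05, -0.92 and 0.56 in wild type. All 12 had a measured difference below 0 over the 6 arrays, with a median of -1.30, but within slide 1 only 8 of 12 did, with a median of -0.15, against -3.35 within slide 2. Leaving out wild type replicate 3 gave a median of -0.46, and leaving out wild type replicate 1 gave -2.30. Pan-endothelial markers summed to 956, 1036 and 972 in knockout against 921, 1013 and 934 in wild type, with a median difference of 0.02.

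**Figure D4:**
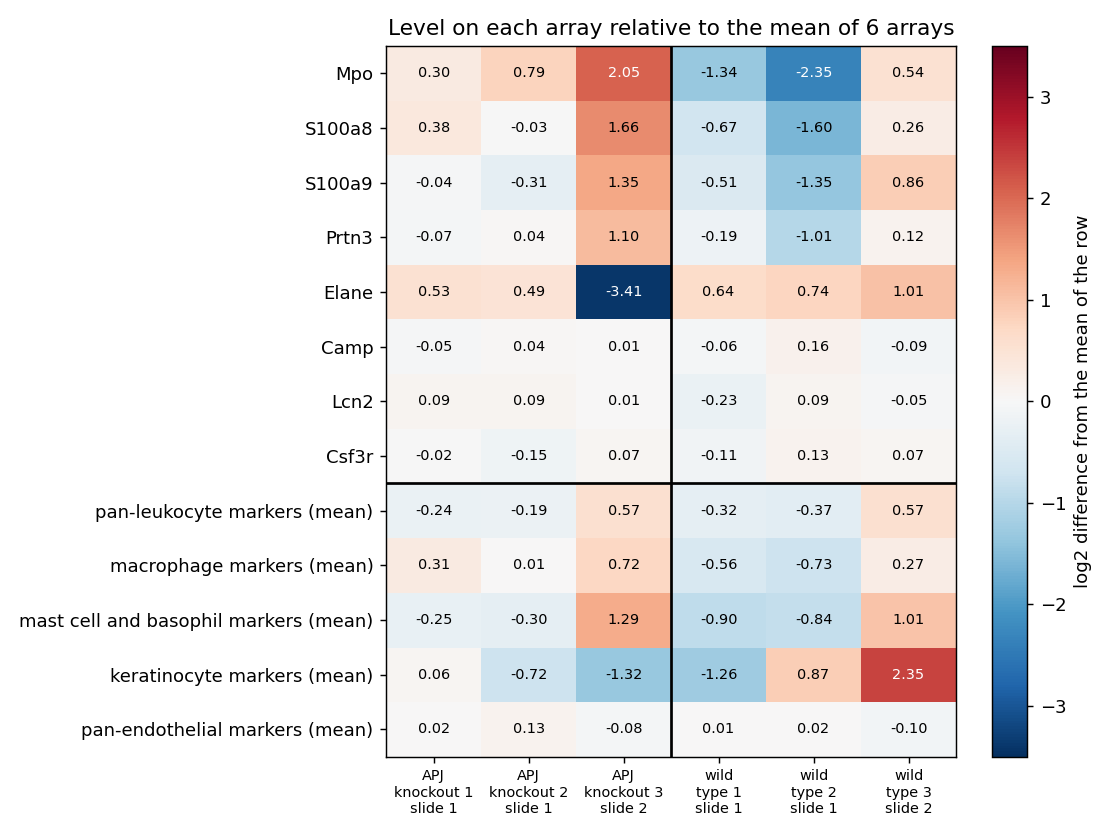
Level of 8 neutrophil transcripts and the mean level of 5 marker lists on each array, relative to the mean of the 6 arrays in that row (log2), in colour and in numbers, with APJ knockout replicates left of wild-type replicates. Mpo, S100a8, S100a9 and Prtn3 read highest in knockout replicate 3 and lowest in wild type replicate 2, where S100a8 and Prtn3 were not well above background, Camp, Lcn2 and Csf3r stayed close to their means, and Elane was far below its mean in knockout replicate 3.

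The genes whose profile over the 6 arrays came closest to a member were found by the root mean square difference of centred levels among 13457 tested genes with a symbol. For Csf3r they were Bcorl1 (0.018), Ddt (0.021), Heatr3 (0.022), Grik5 (0.027) and Tcf7l2 (0.027), all nearly flat. For 4 further members, chosen after their values were seen, the neighbours differed. S100a8 lay closest to Il1b (0.230), Meltf (0.254), Ctss (0.260), Ccl6 (0.264) and Lilrb4a (0.299), with S100a9 at rank 11 (0.364). S100a9 lay closest to Pirb (0.102), Angpt1 (0.142), P2ry14 (0.149), Scin (0.201) and Ctsg (0.205), the last being cathepsin G, another primary granule protease. Mpo lay closest to Adgre1 (0.416), the F4/80 gene of macrophages, Lilrb4a (0.425), Il1b (0.427), Ccl9 (0.486) and Gzmb (0.525), with S100a8 at rank 7. Il1b, Meltf, Angpt1, P2ry14 and Adgre1, like S100a8, were not well above background on every wild-type array. Their distances thus rest in part on values at background. Elane had 1 gene within 1 unit, Klc1 (0.562), and stood at rank 13453 for Mpo.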

How the data were processed

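Total RNA was labelled with Cy3 from 0.1 µg per sample, per the labels' protocols, and hybridised to 1 one-colour Agilent array per sample. The authors deposited scanner files in intensity units, written by version 10.7.3.1 of Agilent's Feature Extraction software according to the headers of the files, and a value table that differed from the processed intensity of each array by 1 constant per array (2.29 to 3.69, maximum relative deviation 5.0e-10). The table's direction and scale follow the intensities, its column medians were 66.98, 60.3 and 63.25 in knockout and 63.46, 62.09 and 65.15 in wild type, and no source used here gives the origin of the constants. No spot was saturated.

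Processed intensities were taken to log2 minus the array's 75th percentile over non-control spots (59305 per array), spots of a probe were averaged without outlier-flagged spots (126 to 179 per array), and probes entered the test when every array of 1 or both genotypes read them well above background. The brightest probe stood for a symbol. RefSeq accessions named 47.4% of probes. Differences were tested with limma 3.58.1 (R 4.3.3, lmFit and eBayes, two-sided, Benjamini-Hochberg over 24235 features, threshold 0.05), and code ran in Python 3.11.15. Single values were also given exact permutation tests. The number of arrays limits the precision.

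Same-numbered arrays deviated together from their group means (correlations 0.23, 0.15 and 0.65 for replicates 1, 2 and 3). The fit blocked on the number takes the samples as paired, which the labels do not state. Correlations between arrays of different number were not set beside these, so pairing by number cannot be told apart from a shared slide. Replicate number and slide overlap in part, replicate 3 being all of slide 2.

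All members were named with every probe. Other gene lists name up to 3 tested genes by smallest unadjusted p, beside genes named for a blocked fit or for reading at background. Cell type marker lists followed no such rule. As most like the member with the highest mean level among those above background on all arrays, 5 genes were named. The members and lists were chosen with earlier results of these data known. Alternatives were the 2 blocks, leaving out each array, quantile and median scaling, normexp (offset 50) on the spots' median signal because no mean signal column was in the files, other filters, the authors' table, the mean over probes and a floor. RefSeq names and promoters are on GRCm38.p6, which was used for gene order and promoters only.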

Additional observations from a re-analysis of the deposited data

How the results depend on the processing

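The count of features past the threshold was 134. It was 5 with the replicate block (4 higher and 1 lower in knockout), 285 with the slide as a block (184 higher and 101 lower), 3 with no filter on dim probes (all higher, with 49224 features tested), and 12 to 58 with any 1 of the 6 arrays left out, where fewer samples were fitted. The 7 remaining alternatives gave counts from 100 to 143. The blocked fit by replicate number changed no call of the 10 neutrophil transcripts: 0 passed in all 16 alternatives. Their median difference of 0.22 lay between 0.02 and 0.35 over the alternatives. Mpo kept a positive difference in all 16 (1.45 to 2.89, adjusted p 0.0659 to 1), as did S100a8 (0.56 to 1.81, 0.0863 to 1) and S100a9 (0.16 to 1.27, 0.197 to 1), and Elane a negative one (-2.26 to -0.29, 0.544 to 1). The Camp difference of -0.00201 (-0.05 to 0.08 with 1 array left out) changed sign in 6 alternatives: 0.08 without wild type replicate 2, 0.02 without knockout replicate 1, 0.01 with quantile normalization, 0.00143 with the median of detected probes, 0.01 with the authors' table and 0.02 with the mean over probes, all small beside its standard error of 0.10; the cause was not tested. The Elane value of -0.29 is that without knockout replicate 3. Signal at background limits Ltf, Ngp and Prtn3, for which no direction is drawn, and with them the median over the 10. Leaving out each array was added for the keratinocyte and macrophage medians after seeing the data.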
